A study of Mus musculus with 12 samples.

Results

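The genes described here are the ligands and receptors of axon guidance measured in mouse striatum: the semaphorins and plexins, the Slits and Robos, the netrins and Unc5 receptors, and the ephrins and Eph receptors. Members were taken by gene symbol alone. A symbol counted if it began with Sema, Slit, Robo, Ntn or Unc5 and a further digit or letter, with Plxn, or with Epha, Ephb, Efna or Efnb and a digit. This gave 74 of the 15397 genes in the deposited table. The libraries came from 4 groups of 3 mice on a C57BL/6 background: R6/2 mice given PLX3397, R6/2 mice given vehicle, wild-type mice given PLX3397 and wild-type mice given vehicle. R6/2 mice carry a transgene for a fragment of mutant human huntingtin and are used as a model of Huntington's disease. PLX3397 is an inhibitor of Csf1r, the receptor that microglia need to survive. It was mixed into chow at 275 ppm and given from 7 to 11 weeks of age to deplete microglia, the brain's resident macrophages. The striatum was then dissected and its total RNA sequenced, so each value is an average over all cells of the piece of tissue.

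Guidance cues steer growing axons by attraction or repulsion. Semaphorins signal through plexins, and most secreted class 3 semaphorins need a neuropilin as the partner that binds them. Slits are secreted repellents read by Robo receptors. Netrins attract through Dcc and repel through Unc5 receptors, and ephrins sit on one cell and bind Eph receptor kinases on the next. In the adult brain many of these proteins remain on neurons and glia, where they take part in synapse formation and plasticity. In the mouse striatum, Sema3e from thalamic axons and Plxnd1 on medium spiny neurons, the main striatal cell type, are known to set which inputs form synapses.

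The 74 members were 7 class 3 semaphorins (Sema3a to Sema3g), 13 membrane-bound semaphorins (Sema4a, Sema4b, Sema4c, Sema4d, Sema4f, Sema4g, Sema5a, Sema5b, Sema6a, Sema6b, Sema6c, Sema6d and Sema7a), 9 plexins (Plxna1 to Plxna4, Plxnb1 to Plxnb3, Plxnc1 and Plxnd1), 3 Slits, 4 Robos, 4 netrins (Ntn1, Ntn3, Ntn4 and Ntn5), 2 netrin-Gs, 4 Unc5 receptors (Unc5a to Unc5d), 4 ephrin-As (Efna1, Efna2, Efna3 and Efna5), 3 ephrin-Bs, 9 EphA receptors (Epha1 to Epha8 and Epha10) and 5 EphB receptors (Ephb1, Ephb2, Ephb3, Ephb4 and Ephb6). The symbol rule also took in 6 Slitrk genes, which encode synaptic adhesion proteins and not Slits, and Unc50, which encodes a Golgi protein and not a netrin receptor. The other 67 genes are the guidance families proper. Of the 74, 60 had at least 100 reads in every library and 1, Ntn5, had under 10 reads in a library. No member was removed by a filter on low values.

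Values are log2 CPM, the logarithm of a read count scaled to the size of its library, and the libraries held 18902120 to 24293208 reads. The drug's target, Csf1r, was read first. Csf1r had log2 CPM values of -0.79, -0.24 and 1.39 with R6/2 PLX3397, of 6.75, 6.62 and 7.16 with R6/2 vehicle, of 1.52, 1.65 and -1.04 with wild-type PLX3397 and of 6.62, 6.74 and 6.63 with wild-type vehicle. The summed level of 10 microglial genes was 26.1 to 38.0 CPM in R6/2 PLX3397 and 30.2 to 54.1 CPM in wild-type PLX3397 libraries, against 378 to 522 CPM in R6/2 vehicle and 425 to 489 CPM in wild-type vehicle libraries. The 12 markers of medium spiny neurons, which define striatum, were present in every library and lower in R6/2, at 774 to 2547 CPM summed over the 6 R6/2 libraries against 3727 to 18059 CPM over the 6 wild-type libraries. Some libraries stood apart. Markers of cortical excitatory neurons summed to 142 and 138 CPM in R6/2 PLX3397 libraries 1 and 2 and to 267 CPM in wild-type PLX3397 library 1, against 424 to 1787 CPM in the other libraries. Markers of choroid plexus summed to 5733 CPM in R6/2 vehicle library 1 and 1829 CPM in wild-type PLX3397 library 1, against 330 to 603 CPM elsewhere. Results that rest on R6/2 PLX3397 libraries 1 and 2 are given with and without them.

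Levels between genes were compared per length, as the mean over 12 libraries of log2 CPM per kilobase of the longest annotated transcript. The highest member was Efnb3, a transmembrane ephrin ligand, at 5.99 log2 CPM per kb. It was followed by Sema7a, a lipid-anchored semaphorin, at 5.22, by Sema6b, a transmembrane ligand of A-type plexins, at 4.96, by Epha4, a receptor for both ephrin classes, at 4.90, and by Unc50 at 4.85. Over the 12 libraries the ranges of neighbours in this order overlapped, Efnb3 running from 4.96 to 6.79 and Sema7a from 3.96 to 6.53. The lowest were Epha1 at -1.84, Epha2 at -1.73 and Ntn5 at -1.24 log2 CPM per kb. The families differed in how evenly they were expressed. The 9 plexins all lay between 2.44 and 3.88 log2 CPM per kb, a span of 1.44, whereas the 9 EphA receptors spanned 6.74, from Epha1 to Epha4. Secreted class 3 semaphorins were low as a family, with a median of 1.34 and a highest member, Sema3e, at 2.46. The EphB receptors and the netrins had similar medians, 1.36 and 1.39, and the highest netrin lay at 1.81. The membrane-bound semaphorins had a median of 2.88 log2 CPM per kb.

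**Figure D1:**
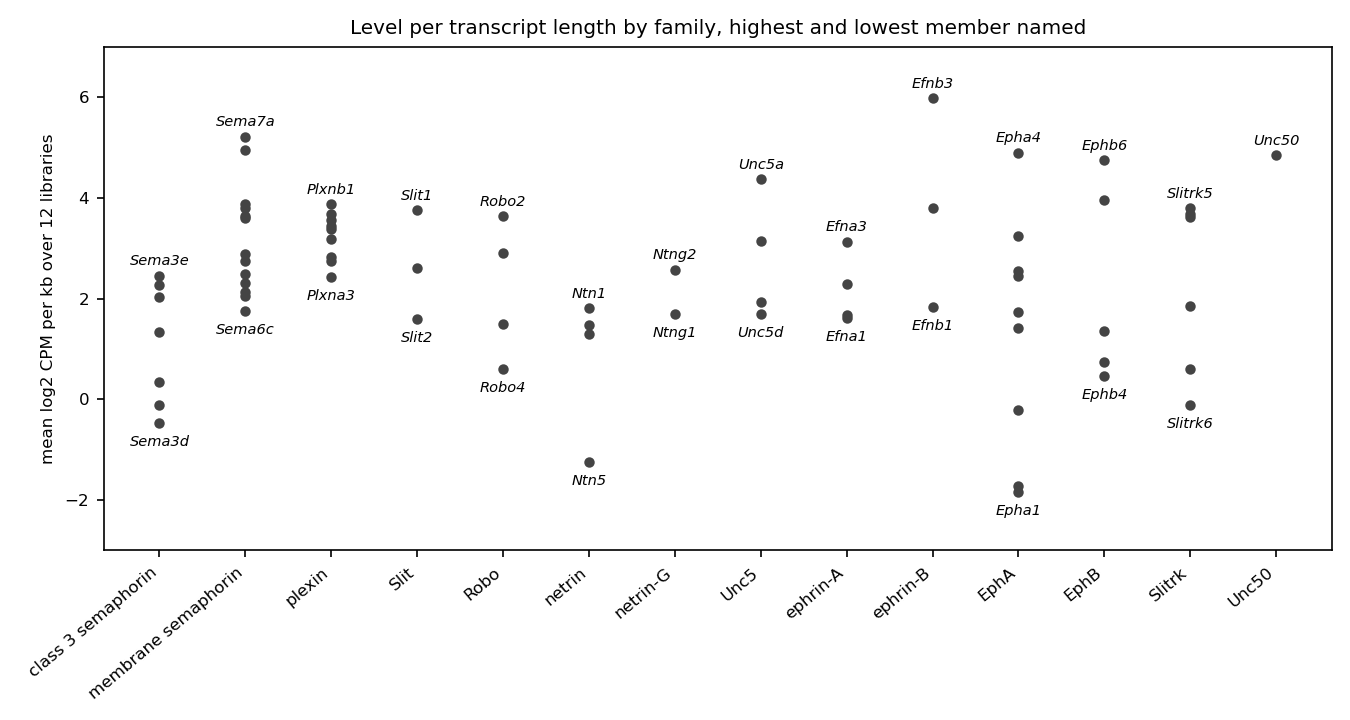
Level of each of the 74 members by family, as the mean over 12 libraries of log2 CPM per kilobase of transcript; each point is a gene, and the highest and lowest of each family are named. Plexins lie within a narrow band, and EphA receptors spread from -1.84 for Epha1 to 4.90 for Epha4.

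**Figure D2:**
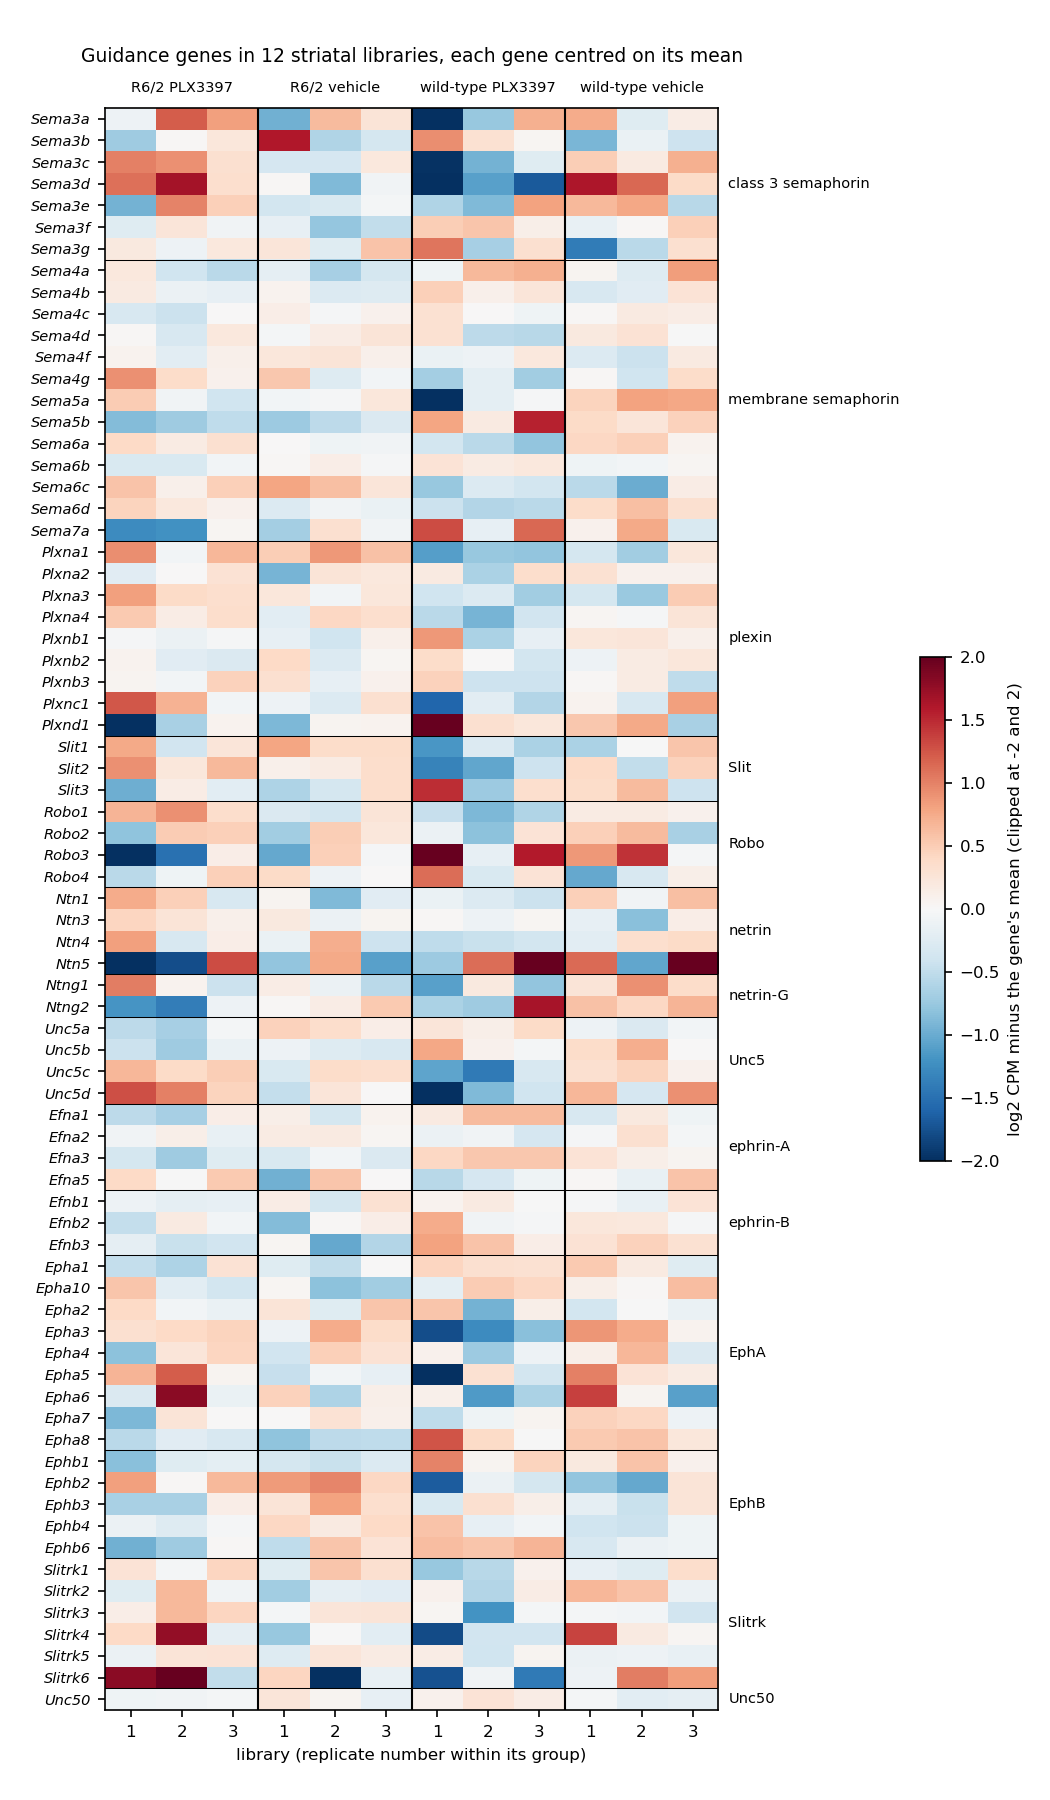
Level of each of the 74 members in the 12 libraries, as log2 CPM minus the gene's mean over all libraries (colour, limited to the range from -2 to 2), with genes grouped by family down the page and libraries 1 to 3 of each group across it. Sema3d, Epha3 and Unc5c are low in all 3 wild-type PLX3397 libraries, and library 1 of that group and library 1 of R6/2 PLX3397 stand out in genes such as Plxnd1 and Robo3.

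On vehicle, R6/2 and wild-type mice differed in a single member, Sema6d, which was lower in R6/2. Sema6d is a transmembrane semaphorin that binds plexin-A1. The gene lies on chromosome 2 (GRCm38, chr2:124089943-124667789). It stood at 6.21, 6.42 and 6.35 log2 CPM in R6/2 vehicle libraries, against 6.85, 7.09 and 6.80 in wild-type vehicle libraries. All 3 R6/2 libraries lay below all 3 wild-type libraries. The difference was -0.59 ± 0.12 log2 (SE, n = 3 mice per group), a 1.50-fold lower level in R6/2, with a limma adjusted p of 0.0405 over all genes. So 1 of 74 members was called, against 2.11% of all genes tested (0.617% higher and 1.49% lower in R6/2). Genes were named mostly by their p, so groups that do not overlap add no separate support, here or below. No share of such genes over all genes is given beside them. As RNA came from whole tissue, fewer cells of a type and less RNA per cell cannot be told apart, here or in any comparison that follows. Of the 12 markers of medium spiny neurons 5 were also called lower in R6/2 vehicle libraries, as were 3 of 10 astrocyte markers, which summed to 2875 to 4036 CPM in R6/2 vehicle and 4958 to 6267 CPM in wild-type vehicle libraries. The part of these cells in the Sema6d difference was not tested.

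The call on Sema6d was close to the threshold. Its adjusted p ranged from 0.0361 to 0.186 over 23 alternative settings, and the call held in 9 of them. It was lost when any R6/2 vehicle library was left out (adjusted p of 0.104, 0.112 and 0.0966 without libraries 1, 2 and 3), without wild-type vehicle library 1 (0.146) or 2 (0.186), without wild-type PLX3397 library 3 (0.0607) and without R6/2 PLX3397 library 2 (0.0553). Without wild-type vehicle library 3, 3 members were called, and without wild-type PLX3397 library 1, 2 were. The members next in line were not called. Epha8, an Eph receptor for ephrin-As, stood at 3.16, 3.44 and 3.46 log2 CPM in R6/2 vehicle and at 4.49, 4.54 and 4.19 in wild-type vehicle libraries (difference -1.05 ± 0.27, adjusted p = 0.0685). Efnb3 stood at 7.69, 6.63 and 7.07 in R6/2 vehicle and at 7.95, 8.11 and 7.97 in wild-type vehicle libraries (-0.88 ± 0.24, adjusted p = 0.0786). Neither pair of groups overlapped. When a smooth trend with the GC content and length of transcripts was removed, Epha8 and Efnb3 were called along with Sema6d. Those 3 make up 4.05% of the members, beside 4.16% of all genes in that fit. Without R6/2 PLX3397 libraries 1 and 2, which enter only the shared spread, 0 members were called by limma, against 1.47% of all genes, with 6 higher and 13 lower at an unadjusted p under 0.05. Over all 74 members the median difference was -0.18 log2, beside 0.01 over all genes.

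In wild-type mice 11 members were lower on PLX3397 than on vehicle and 0 were called higher. Those 11 were 5 semaphorins (Sema6d, Sema6a, Sema3d, Sema3c and Sema5a), the netrin receptors Unc5c and Unc5d, the Slit receptor Robo1 with its ligand Slit2, the plexin Plxna4 and the ephrin receptor Epha3. They make up 14.9% of the members, and 14.2% of all genes were called in this comparison (5.93% higher and 8.3% lower), so the share of members called was near the background. The median difference over the members was -0.18 log2, beside 0.005 over all genes. Over the 67 genes of the guidance families proper the median was -0.09, and 16.4% of them were called.

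The ligands were as follows. Sema6d stood at 6.05, 5.91 and 5.94 log2 CPM in wild-type PLX3397 libraries, against 6.85, 7.09 and 6.80 in wild-type vehicle libraries, a fall of 0.95 ± 0.12 (limma adjusted p = 0.00198). Its close relative Sema6a, which binds plexin-A2 and plexin-A4, stood at 4.71, 4.54 and 4.28 on PLX3397, against 5.49, 5.55 and 5.16 on vehicle (-0.89 ± 0.15, adjusted p = 0.00698). In both genes every PLX3397 library lay below every vehicle library. Sema3d, a secreted class 3 semaphorin, showed the largest change of the 11, with -0.39, 1.09 and 0.51 log2 CPM on PLX3397, against 3.80, 3.33 and 2.56 on vehicle (-2.83 ± 0.47, a 7.10-fold lower level, adjusted p = 0.00721). This fall rests on few reads, 13, 47 and 27 on PLX3397 against 250, 222 and 136 on vehicle. Sema3c, also secreted, stood at 2.50, 3.54 and 4.24 on PLX3397, against 4.98, 4.66 and 5.20 on vehicle (-1.52 ± 0.37, adjusted p = 0.0261). These groups did not overlap either, though library 1 on PLX3397 was more than 1 log2 unit below the other PLX3397 libraries for Sema3c. Sema5a, a semaphorin with thrombospondin repeats, stood at 3.57, 5.36 and 5.54 on PLX3397, against 6.00, 6.38 and 6.35 on vehicle (-1.42 ± 0.43, adjusted p = 0.0498). Slit2 stood at 3.58, 3.87 and 4.50 on PLX3397, against 5.30, 4.43 and 5.38 on vehicle (-1.05 ± 0.29, adjusted p = 0.0390). For Slit2 the groups overlapped, as vehicle library 2 was below PLX3397 library 3.

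The receptors showed the same direction. Epha3, a receptor for ephrin-As, stood at 0.52, 1.03 and 1.46 log2 CPM on PLX3397, against 3.19, 3.04 and 2.36 on vehicle (-1.86 ± 0.31, a 3.62-fold lower level, limma adjusted p = 0.00721). Its reads were also few, 26, 45 and 54 on PLX3397 against 163, 181 and 118 on vehicle. Unc5c stood at 4.16, 3.79 and 4.89 on PLX3397, against 5.53, 5.65 and 5.30 on vehicle (-1.21 ± 0.26, adjusted p = 0.0181). Unc5d, which also binds the adhesion protein Flrt2, stood at 2.41, 4.02 and 4.50 on PLX3397, against 5.56, 4.55 and 5.82 on vehicle (-1.67 ± 0.50, adjusted p = 0.0470). In none of these 3 receptors did the groups overlap, and Unc5d came closest, with 4.50 on PLX3397 library 3 beside 4.55 on vehicle library 2. Robo1 stood at 5.37, 4.92 and 5.23 on PLX3397, against 5.98, 5.99 and 5.91 on vehicle (-0.78 ± 0.19, adjusted p = 0.0272). Plxna4, a receptor shared by class 3 and class 6 semaphorins, stood at 5.98, 5.59 and 6.15 on PLX3397, against 6.57, 6.50 and 6.78 on vehicle (-0.71 ± 0.19, adjusted p = 0.0364). Robo1 and Plxna4 were tight within each group and did not overlap between groups. Another Unc5 receptor, Unc5a, stood at 6.63, 6.49 and 6.77 on PLX3397, against 6.27, 6.09 and 6.33 on vehicle, a difference of 0.40 ± 0.16 that was not called (adjusted p = 0.116).

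Of these 11, Sema6d, Sema6a, Sema3d and Epha3 were called whichever library was left out, and the other 7 lost their call without at least 1 library, with adjusted p of 0.0503 to 0.149 where lost. The count fell to 4 without wild-type PLX3397 library 2, to 4, 5 and 6 without wild-type vehicle libraries 1, 2 and 3, and to 7 without R6/2 vehicle library 3. It was also 7 without R6/2 PLX3397 libraries 1 and 2, where 8.55% of all genes were called. With R6/2 vehicle library 1 and wild-type PLX3397 library 1, the highest in choroid plexus markers, both left out, the count was 12, and Slit2 (adjusted p = 0.0825) and Unc5d (0.0679) were not among them. The summed level of 10 markers of oligodendrocyte precursors moved with these members, at 270 to 299 CPM in wild-type PLX3397 against 483 to 549 CPM in wild-type vehicle libraries, and 6 of the 10 were called lower. Astrocyte markers summed to 3460 to 4577 CPM on PLX3397 against 4958 to 6267 CPM on vehicle, and 3 of 10 were called lower. Among 10 markers of thalamus, septum and pallidum, 1 was called lower, with 49.6 to 369 CPM summed on PLX3397 against 202 to 469 CPM on vehicle. The part of these cells or regions in the members' fall was not tested.

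In R6/2 mice 0 members were called between PLX3397 and vehicle by limma, where 1.1% of all genes were called (0.0585% higher and 1.04% lower). At an unadjusted p under 0.05, 6 members were higher and 4 lower, and limma-voom on the recovered reads also called 0. The smallest p belonged to Unc5a, a netrin receptor, with log2 CPM values of 5.85, 5.71 and 6.33 on PLX3397, against 6.84, 6.73 and 6.50 on vehicle (-0.73 ± 0.16, limma adjusted p = 0.0814). Robo1 stood at 6.51, 6.74 and 6.18 on PLX3397, against 5.54, 5.45 and 6.09 on vehicle (0.78 ± 0.19, adjusted p = 0.125). Sema6d stood at 6.92, 6.70 and 6.58 on PLX3397, against 6.21, 6.42 and 6.35 on vehicle (0.41 ± 0.12, adjusted p = 0.239). In none of the 3 genes did the groups overlap. They were picked as the 3 members with the smallest p, so this adds no separate support. Cortical markers summed to 142, 138 and 1051 CPM in the PLX3397 libraries, against 766 to 1787 CPM in the vehicle libraries, and their part in these differences was not tested. The counts depended on single libraries: without R6/2 PLX3397 library 3, Unc5a (adjusted p = 0.00952) and Robo1 (0.0426) were called, and without R6/2 vehicle library 3 Robo1 (0.0393) was called. Without R6/2 PLX3397 libraries 1 and 2 the differences were -0.36 for Unc5a, 0.48 for Robo1 and 0.25 for Sema6d, and 0 members were called, or passed an unadjusted p of 0.05, where 0.377% of all genes were called.

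The drug's change was then compared between genotypes with an interaction term, the change in R6/2 minus the change in wild type. It was called for 12 members: Sema6d, Sema3d, Sema6a, Robo1, Sema3c, Epha3, Unc5c, Unc5d and Slit2, where it was positive, and Unc5a, Ephb6 and Sema6b, where it was negative. That is 16.2% of the members, and 17% of all genes were called (9.29% positive and 7.71% negative), again near the background. The interaction uses the same libraries as the drug comparisons above. For Sema3d the difference between PLX3397 and vehicle was 1.34 ± 0.47 in R6/2 and -2.83 ± 0.47 in wild type. For Epha3 it was 0.05 ± 0.31 in R6/2 and -1.86 ± 0.31 in wild type.

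**Figure D3:**
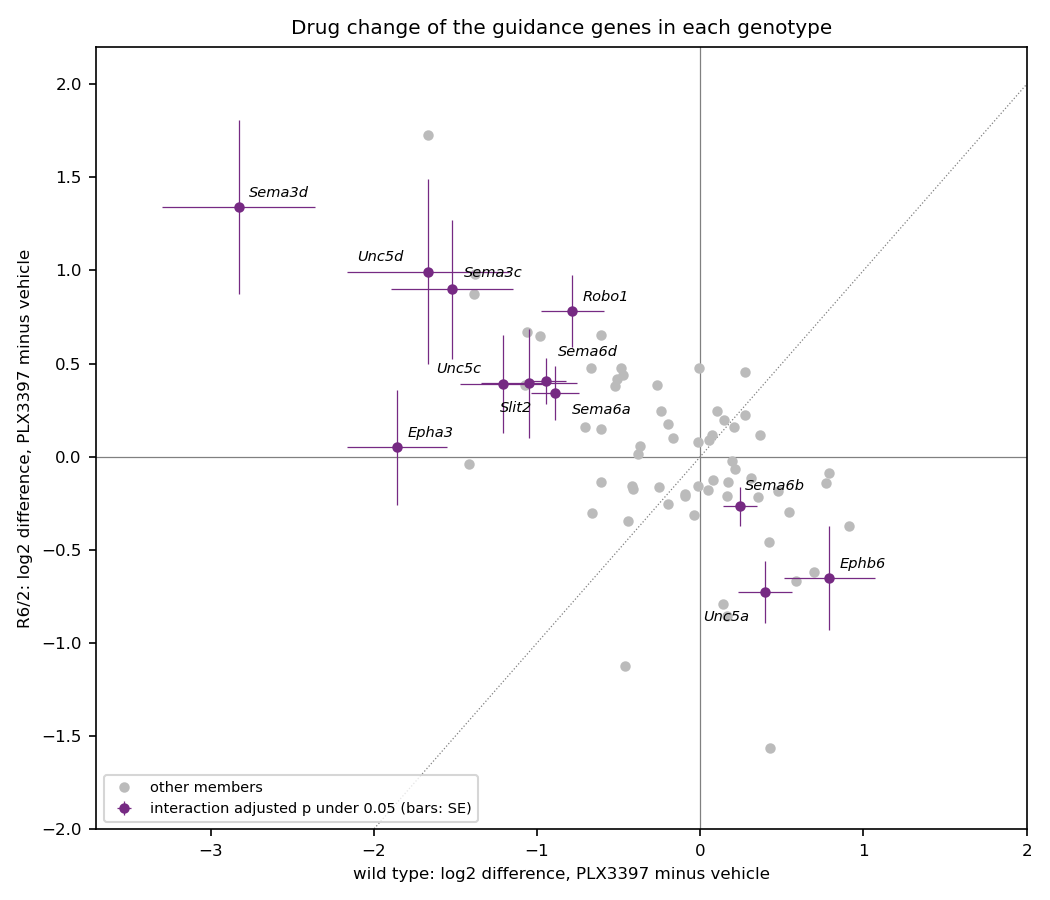
Difference between PLX3397 and vehicle in R6/2 mice (vertical axis, log2) against the same difference in wild-type mice (horizontal axis, log2) for the 74 members; purple points are the 12 members with a called interaction, bars are standard errors, and the dotted line marks equal change. The 9 members with a positive interaction lie left of 0 and above 0, and Unc5a, Ephb6 and Sema6b lie right of 0 and below 0.

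For Sema6d the interaction was 1.35 ± 0.17 log2 (limma adjusted p = 0.0139). The libraries ran, as given above, at 6.58 to 6.92 log2 CPM in R6/2 PLX3397, 6.21 to 6.42 in R6/2 vehicle, 5.91 to 6.05 in wild-type PLX3397 and 6.80 to 7.09 in wild-type vehicle. Wild-type mice on the drug were thus lowest and wild-type mice on vehicle highest, and only R6/2 PLX3397 and wild-type vehicle libraries overlapped. Sema3d was also lowest in wild-type PLX3397 libraries, with a wider spread: 3.29, 3.84 and 2.52 in R6/2 PLX3397, 2.21, 1.30 and 2.11 in R6/2 vehicle and the wild-type values above (interaction 4.17 ± 0.66, adjusted p = 0.0139). Sema6a stood at 5.48, 5.24 and 5.40 in R6/2 PLX3397 against 5.09, 5.0 and 5.01 in R6/2 vehicle libraries (1.23 ± 0.21, adjusted p = 0.0139). For Sema3d and Sema6a every R6/2 PLX3397 library lay above every R6/2 vehicle library, the reverse of the order in wild type. Robo1 had an interaction of 1.57 ± 0.27 (adjusted p = 0.0139), with the R6/2 values given above.

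Among the other receptors, Unc5c stood at 5.88, 5.60 and 5.71 log2 CPM in R6/2 PLX3397 against 4.90, 5.57 and 5.54 in R6/2 vehicle libraries (interaction 1.60 ± 0.37, limma adjusted p = 0.0214). Unc5d stood at 6.19, 5.90 and 5.35 in R6/2 PLX3397 against 4.41, 5.13 and 4.91 in R6/2 vehicle libraries (2.66 ± 0.70, adjusted p = 0.0304). Neither Unc5c nor Unc5d overlapped between the R6/2 groups. Epha3 overlapped between them, at 2.62, 2.69 and 2.74 in R6/2 PLX3397 and at 2.19, 3.04 and 2.66 in R6/2 vehicle (1.91 ± 0.44, adjusted p = 0.0205). Among ligands, Sema3c stood at 5.49, 5.39 and 4.81 in R6/2 PLX3397 against 4.15, 4.15 and 4.69 in R6/2 vehicle (2.42 ± 0.53, adjusted p = 0.0185). Slit2 stood at 5.83, 5.14 and 5.55 in R6/2 PLX3397 against 5.01, 5.07 and 5.26 in R6/2 vehicle (1.44 ± 0.41, adjusted p = 0.0384). For Slit2 the R6/2 groups overlapped.

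Members with a negative interaction were fewer and 2 of them are receptors. Unc5a, with differences between PLX3397 and vehicle of -0.73 in R6/2 and 0.40 in wild type that were not called, had an interaction of -1.13 ± 0.23 (limma adjusted p = 0.0167). Ephb6, an Eph receptor without kinase activity, stood at 5.70, 5.96 and 6.69 log2 CPM in R6/2 PLX3397, 6.15, 7.21 and 6.94 in R6/2 vehicle, 7.27, 7.22 and 7.34 in wild-type PLX3397 and 6.34, 6.55 and 6.58 in wild-type vehicle libraries (-1.44 ± 0.39, adjusted p = 0.0333). Its wild-type groups did not overlap and its R6/2 groups did. Sema6b stood at 6.56, 6.55 and 6.80 in R6/2 PLX3397, 6.88, 6.99 and 6.83 in R6/2 vehicle, 7.12, 7.02 and 7.06 in wild-type PLX3397 and 6.77, 6.80 and 6.89 in wild-type vehicle (-0.51 ± 0.15, adjusted p = 0.0381). Its differences were small beside those of the others, and its replicates lay close together.

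**Figure D4:**
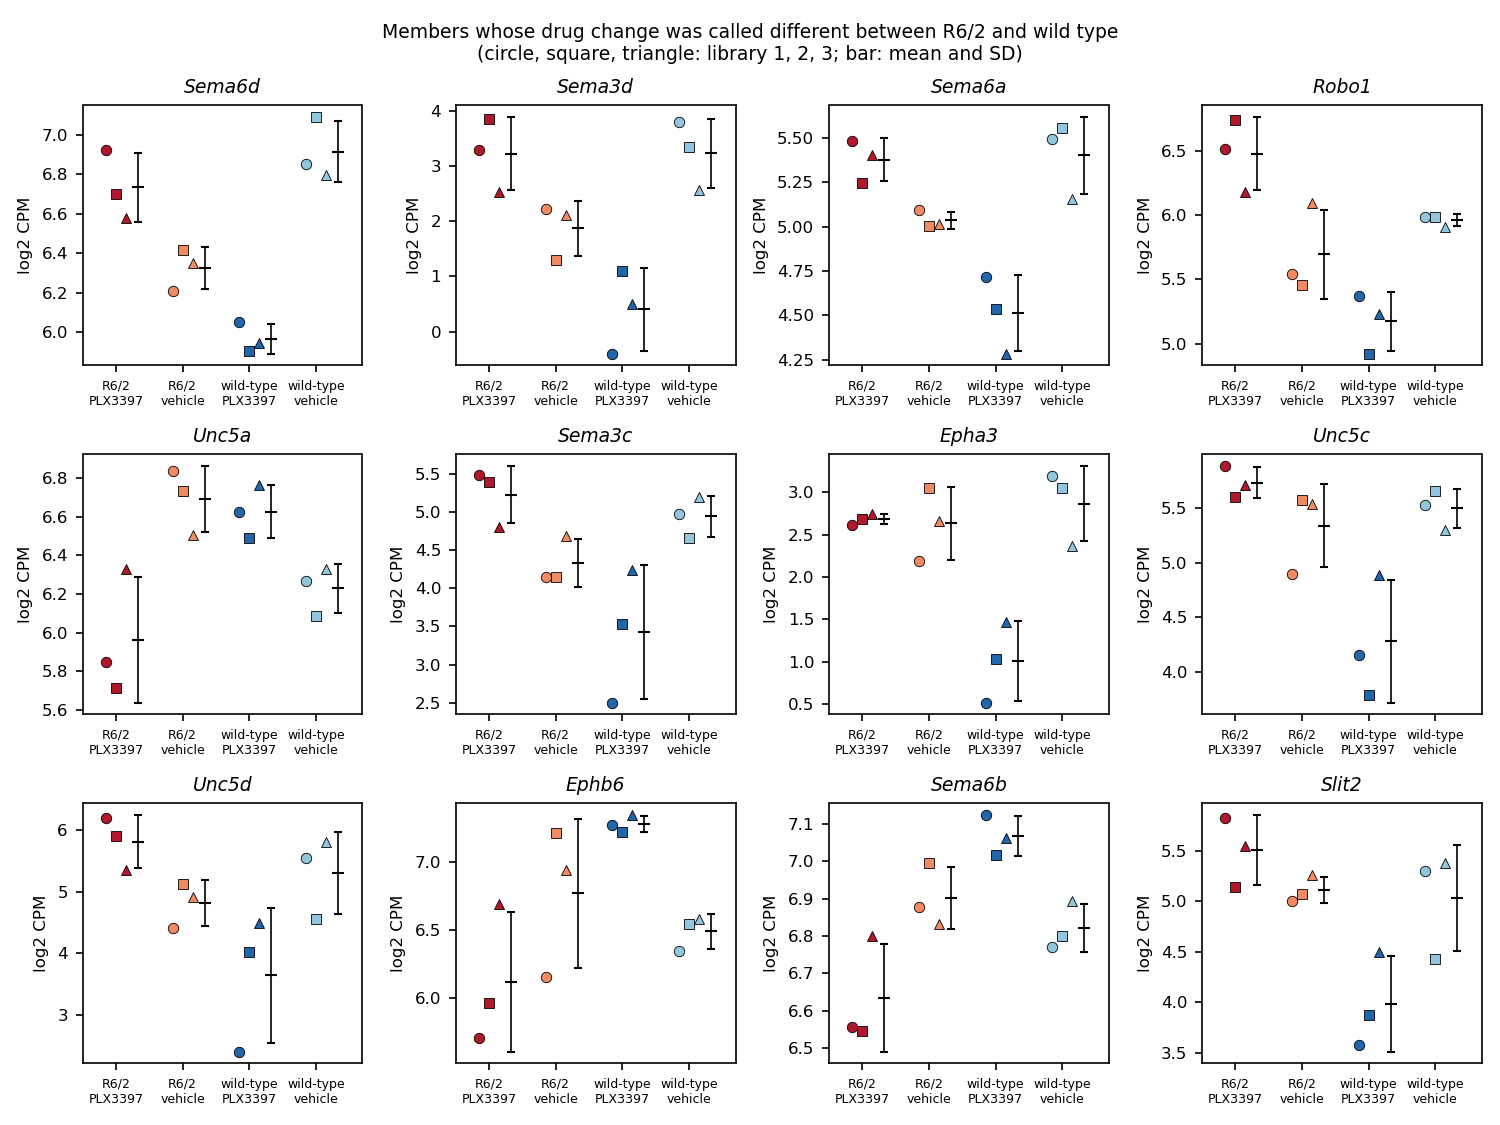
Level (log2 CPM) of the 12 members with a called interaction in each library of the 4 groups; circles, squares and triangles are libraries 1, 2 and 3, and the bar beside them is the mean with its SD. Sema6d is lowest in the wild-type PLX3397 libraries, at 5.91 to 6.05, and Unc5a is lowest in R6/2 PLX3397 libraries 1 and 2, at 5.85 and 5.71.

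Without R6/2 PLX3397 libraries 1 and 2, 0 members kept a called interaction, as did 0 of all genes, while 10 members were positive and 1 negative at an unadjusted p under 0.05 by limma. That fit leaves 1 library in the R6/2 PLX3397 group, which is assumed to vary like the others. The estimates were then 1.20 for Sema6d, 3.48 for Sema3d, 1.25 for Sema6a, 1.27 for Robo1 and -0.76 for Unc5a, each with an adjusted p of 0.235. With the cortical marker level as a covariate 0 members were called by limma, with 17 positive and 4 negative at an unadjusted p under 0.05, against 1 called of all genes. Sema6d, Sema3d, Sema6a, Robo1 and Unc5a were called whichever single library was left out. The count fell to 5 without wild-type vehicle library 1, to 6 without R6/2 PLX3397 library 2 and to 7 without R6/2 PLX3397 library 1. The part of cortical tissue in the interaction was not tested beyond these fits. Markers of oligodendrocyte precursors summed to 379 to 474 CPM in R6/2 PLX3397 and 360 to 496 CPM in R6/2 vehicle, beside 270 to 299 CPM in wild-type PLX3397 and 483 to 549 CPM in wild-type vehicle libraries, and 5 of the 10 had a called positive interaction. A positive interaction was also called for 3 of 10 astrocyte markers and 2 of 10 markers of thalamus, septum and pallidum. It was called negative for 3 of 10 endothelial markers, 2 of 10 markers of pericytes and fibroblasts and 1 of 10 microglial markers. The part of these cells or regions in the interaction was not tested.

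The stretch around the start of transcription is shown for 4 of the 5 members whose interaction was called in every leave-one-out fit, from RefSeq on GRCm38.p6, each 300 bases on the plus strand, running from 250 bases before the start to 50 after it. Capitals mark matches, on either strand, to a GC box (GGGCGG), an E-box (CACGTG) or a TATA element (TATAA). Sema6d is the first of 2 listed starts, at chr2:124089719-124090018, Sema3d is at chr5:12382916-12383215, Robo1 at chr16:72662899-72663198 and Unc5a at chr13:54949161-54949460. The listed starts of Robo1 and Unc5a lie inside the annotated genes, which span chr16:72027518-73047491 for Robo1 and chr13:54945151-55006018 for Unc5a.
Sema6d: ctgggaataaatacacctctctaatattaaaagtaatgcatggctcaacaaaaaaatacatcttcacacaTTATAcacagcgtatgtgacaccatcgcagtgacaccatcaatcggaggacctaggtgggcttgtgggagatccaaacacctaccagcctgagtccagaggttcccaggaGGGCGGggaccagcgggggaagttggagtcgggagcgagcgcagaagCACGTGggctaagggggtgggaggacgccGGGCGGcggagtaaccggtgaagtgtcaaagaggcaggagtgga
Sema3d: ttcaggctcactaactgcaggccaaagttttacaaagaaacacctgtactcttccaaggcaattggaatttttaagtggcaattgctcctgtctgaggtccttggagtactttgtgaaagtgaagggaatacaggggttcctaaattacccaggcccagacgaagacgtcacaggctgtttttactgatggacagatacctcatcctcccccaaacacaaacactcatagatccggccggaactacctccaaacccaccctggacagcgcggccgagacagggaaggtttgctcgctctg
Robo1: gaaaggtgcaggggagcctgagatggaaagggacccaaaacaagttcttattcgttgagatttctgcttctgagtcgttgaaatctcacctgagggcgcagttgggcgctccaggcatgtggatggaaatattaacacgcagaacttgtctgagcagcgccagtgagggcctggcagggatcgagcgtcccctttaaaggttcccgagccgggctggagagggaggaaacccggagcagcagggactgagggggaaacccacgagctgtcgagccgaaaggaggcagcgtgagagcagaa
Unc5a: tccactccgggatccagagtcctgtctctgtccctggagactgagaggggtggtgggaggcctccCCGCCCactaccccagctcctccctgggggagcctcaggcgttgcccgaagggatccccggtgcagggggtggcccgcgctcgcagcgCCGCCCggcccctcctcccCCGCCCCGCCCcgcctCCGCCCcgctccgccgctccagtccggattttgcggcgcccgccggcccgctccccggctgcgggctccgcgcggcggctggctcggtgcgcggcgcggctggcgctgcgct
The promoters shown had a GC content of 54.3% for Sema6d, 49.7% for Sema3d and 57.0% for Robo1. That of Unc5a was 78.3% GC and held 5 GC box matches, some of which overlap. Of these 4 genes only Unc5a had a negative interaction, and Sema6a is not shown. So few genes cannot show whether promoter GC content goes with the direction of the interaction. Sema6d held 2 GC boxes, 1 E-box and 1 TATA match, and Sema3d and Robo1 held none of the 3 motifs in this window. A promoter was listed for 64 of the 74 members, 81 promoters in all, and 67.9% of these held a GC box, against 35.7% of all 32851 promoters. The E-box was found in 7.41% of member and 7.15% of all promoters, and the TATA match in 7.41% of member and 24.9% of all promoters. Member promoters had a median GC content of 64%, against 52.7% for all promoters, so these shares compare sets of unlike base content. A match in letters is a description and not a bound site.

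Transcripts of the members also differed in GC content. Across the 74 members, the drug's change followed the GC content of the transcript in opposite directions in the genotypes. Spearman's rho was -0.60 in R6/2 and 0.65 in wild type over 74 members, and -0.47 in R6/2 and 0.52 in wild type over the 14305 genes with a known GC content. Genes of 1 library share its depth and composition and are not independent replicates, and the genotypes' differences come from separate libraries. In wild type the 11 members that fell had a transcript GC content of 39.2% to 51.6% with a median of 45.5%, against a median of 56.5% for the 63 not called. When a smooth trend with GC content and length was removed, 3 members were still called in wild type, namely Sema6d (-0.69, limma adjusted p = 0.0133), Sema3d (-2.0, 0.0174) and Epha3 (-1.26, 0.0131). That is 4.05% of the members, near the 4.34% of all genes called in that fit. The interaction was then called for Sema6d (0.96, adjusted p = 0.0360), Sema3d (2.76, 0.0384) and Robo1 (1.04, 0.0484) and for no other member. This again is 4.05% of the members, beside 2.46% of all genes. After the removal, rho with GC content over the members was still 0.22 in wild type and -0.24 for the interaction. Over all genes it was 0.004 and 0.02. Whether GC content contributes to the changes was not tested beyond this.

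**Figure D5:**
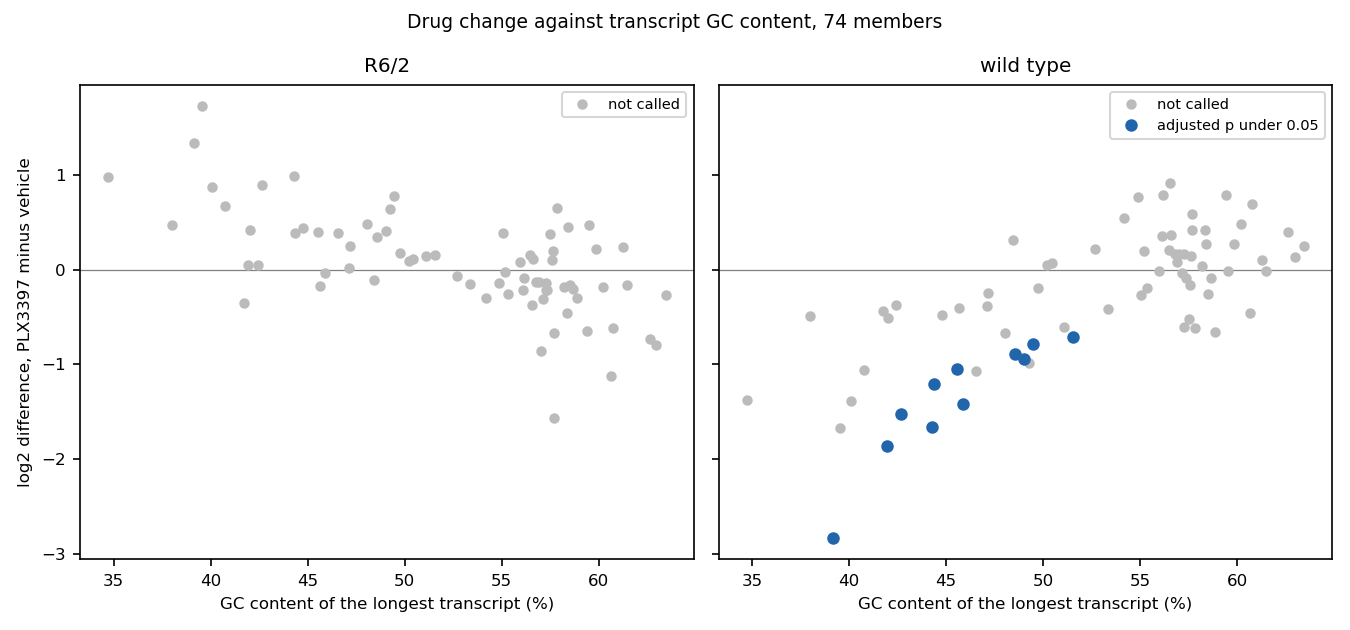
Difference between PLX3397 and vehicle (log2) against the GC content of the longest transcript (percent) for the 74 members, in R6/2 mice on the left and wild-type mice on the right; blue points are members called by limma. In R6/2 the points slope downwards and none is called, and in wild type they slope upwards and the 11 called members lie at 39.2% to 51.6% GC.

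The widest contrast was between genotypes on the drug. R6/2 PLX3397 libraries differed from wild-type PLX3397 libraries in 32 members, 19 higher and 13 lower, or 43.2% of the members, where 35% of all genes were called (17.1% higher and 17.9% lower). These libraries also enter the comparisons above. The higher members were Robo1, Sema6d, Sema3d, Sema6a, Unc5c, Epha3, Slit2, Plxna1, Plxna4, Sema3c, Unc5d, Plxna3, Sema4g, Plxnc1, Sema6c, Slitrk3, Ephb2, Slitrk4 and Slitrk6. The lower members were Efna3, Sema5b, Ephb6, Sema6b, Unc5a, Ephb1, Efnb3, Sema7a, Epha8, Robo3, Efna1, Unc5b and Plxnd1. In families, 4 plexins were higher and 1 lower, 4 membrane-bound semaphorins higher and 3 lower, and 2 Unc5 receptors higher and 2 lower. Among EphB receptors 1 was higher and 2 lower, and among EphA receptors, as among Robos, 1 was higher and 1 lower. Higher only were 3 Slitrk genes, 2 class 3 semaphorins and 1 Slit, and lower only were 2 ephrin-As and 1 ephrin-B. These small counts stand beside the 35% of all genes called.

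For members whose wild-type values are given above, R6/2 PLX3397 was higher than wild-type PLX3397 by 1.30 ± 0.19 for Robo1 (limma adjusted p = 0.00122), 0.77 ± 0.12 for Sema6d (0.00168), 2.81 ± 0.47 for Sema3d (0.00195), 0.86 ± 0.15 for Sema6a (0.00211), 1.45 ± 0.26 for Unc5c (0.00288), 1.68 ± 0.31 for Epha3 (0.00301), 1.52 ± 0.29 for Slit2 (0.00366), 0.96 ± 0.19 for Plxna4 (0.00446) and 1.80 ± 0.37 for Sema3c (0.00507). In R6/2 mice on PLX3397, Plxna4 levels were 7.06, 6.67 and 6.88 log2 CPM. Efna3, a lipid-anchored ephrin, stood at 4.02, 3.66 and 4.13 log2 CPM in R6/2 PLX3397, against 4.79, 4.91 and 4.90 in wild-type PLX3397 libraries (-0.93 ± 0.15, adjusted p = 0.00154). Sema5b, a relative of Sema5a, stood at 4.09, 4.25 and 4.45 in R6/2 PLX3397, against 5.74, 5.14 and 6.50 in wild-type PLX3397 libraries (-1.53 ± 0.28, adjusted p = 0.00276). Plxna1, the receptor of Sema6d, stood at 7.48, 6.49 and 7.21 in R6/2 PLX3397, against 5.44, 5.80 and 5.77 in wild-type PLX3397 libraries (1.39 ± 0.27, adjusted p = 0.00381). All 12 had groups that did not overlap. They were picked as the 12 members with the smallest p, so this adds no separate support, and no share over all genes is given beside it.

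Sema7a and its receptor Plxnc1 went opposite ways. Sema7a stood at 5.68, 5.73 and 6.98 log2 CPM in R6/2 PLX3397, against 8.25, 6.78 and 8.09 in wild-type PLX3397 libraries (-1.57 ± 0.46, limma adjusted p = 0.0240), and library 3 of the R6/2 group overlapped the wild-type group. Plxnc1 stood at 6.87, 6.31 and 5.57 in R6/2 PLX3397, against 4.03, 5.41 and 5.03 in wild-type PLX3397 libraries (1.42 ± 0.41, adjusted p = 0.0225), with no overlap. Unlike the 12 above, both lost their call without single libraries. In all, 16 of the 32 were called whichever library was left out, and the other 16 reached adjusted p of 0.0504 to 0.181 where lost. The count fell to 17 without R6/2 PLX3397 library 1. Without R6/2 PLX3397 libraries 1 and 2 it was 0 by limma, with 12 members higher and 3 lower at an unadjusted p under 0.05 and 1.54% of all genes called. The differences were then 1.00 for Robo1, 0.61 for Sema6d, 2.12 for Sema3d, -0.73 for Sema7a and 0.75 for Plxnc1. With the trend in GC content and length removed, as in the fits described above, 14 of the 32 stood and 3 other members were called. That is 23.0% of the members, below the 24.8% of all genes called in that fit. Of the members described here, Efna3 (-0.44, adjusted p = 0.0649), Sema6a (0.43, 0.0807), Slit2 (0.69, 0.157), Plxna4 (0.38, 0.118), Sema7a (-1.14, 0.0937) and Plxnc1 (0.99, 0.159) were then not called.

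Markers of several cell types moved with this contrast. All 12 markers of medium spiny neurons were called lower, with sums of 822 to 2547 CPM in R6/2 PLX3397 and 7335 to 18059 CPM in wild-type PLX3397 libraries. Markers of mature oligodendrocytes summed to 4744 to 7931 CPM in R6/2 PLX3397 and 9280 to 12212 CPM in wild-type PLX3397, with 3 of 10 called lower. Markers of oligodendrocyte precursors summed to 379 to 474 CPM in R6/2 PLX3397 and 270 to 299 CPM in wild-type PLX3397, with 5 of 10 called higher. Cortical markers summed to 138 to 1051 CPM in R6/2 PLX3397 and 267 to 1445 CPM in wild-type PLX3397. Of these 10 markers 1 was called higher and 1 lower. Markers of thalamus, septum and pallidum had 2 of 10 called higher, and microglial markers 2 of 10 lower. Astrocyte markers had 1 higher and 2 lower, endothelial markers 1 higher and 1 lower, and markers of pericytes and fibroblasts 1 higher. With the cortical marker level as a covariate 25 members were called by limma, or 33.8%, beside 27.4% of all genes. The part of these cells or regions in the members' differences was not tested beyond this fit.

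The wider pathway was read from lists of other guidance genes, chosen with earlier results of these data known. Of 17 co-receptors, 2 were called lower and 0 higher on PLX3397 in wild type, that is 11.8% of the list beside 14.2% of all genes. The list's median was -0.68 log2, beside 0.005 over all genes. Dcc, the netrin receptor that Unc5 proteins partner, stood at 3.90, 4.52 and 5.33 log2 CPM in wild-type PLX3397 against 5.98, 6.17 and 5.41 in wild-type vehicle libraries (-1.27 ± 0.34, limma adjusted p = 0.0353). Lrig2 stood at 5.19, 4.93 and 5.16 in wild-type PLX3397 against 5.63, 5.80 and 5.64 in wild-type vehicle libraries (-0.60 ± 0.13, adjusted p = 0.0168). Neither gene overlapped between the groups. Both calls ended with the trend in GC content and length removed (-0.04 for Lrig2, adjusted p = 0.819, and -0.49 for Dcc, 0.353) and without wild-type vehicle library 1 or 2. The call on Dcc held in 11 of 23 alternatives and was also lost without R6/2 PLX3397 libraries 1 and 2 (adjusted p = 0.0524).

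The interaction was called for 4 of the 17 co-receptors, all positive, or 23.5% of the list beside 17% of all genes. Among them were Lrig2 (0.95 ± 0.18, limma adjusted p = 0.0146) and Dcc (2.12 ± 0.48, adjusted p = 0.0205). The estimates without R6/2 PLX3397 libraries 1 and 2 were 0.84 for Lrig2 (adjusted p = 0.235) and 1.74 for Dcc (0.250), and 0 co-receptors were called by limma, with 3 positive at an unadjusted p under 0.05. With the trend removed they were 0.09 for Lrig2 (adjusted p = 0.728) and 0.90 for Dcc (0.223). On vehicle 1 of the 17 co-receptors was called, beside 2.11% of all genes. It was Flrt3, a ligand of Unc5 receptors, at 4.37, 4.51 and 4.77 in R6/2 vehicle against 5.73, 5.76 and 5.18 in wild-type vehicle libraries (-1.01 ± 0.22, adjusted p = 0.0453), and its call held in 10 of 23 alternatives.

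Of 10 other guidance ligands measured, 1 was lower in wild-type mice on PLX3397, or 10% beside 14.2% of all genes, and the median of the list was -0.07. It was Wnt5a, a secreted cue, at 1.65, 2.23 and 1.63 log2 CPM on PLX3397 against 3.04, 3.60 and 3.29 on vehicle (-1.47 ± 0.28, limma adjusted p = 0.0126). The call ended when wild-type vehicle library 2 was dropped and with the trend removed (-1.04, adjusted p = 0.111). Of 60 intracellular effectors, 3 rose and 3 fell in that comparison, 10% of the list beside 14.2% of all genes, with a median of -0.08. The smallest p was that of Enah, an actin regulator downstream of Robo and netrin receptors, at 5.48, 5.32 and 5.61 on PLX3397 against 6.40, 6.49 and 6.56 on vehicle (-1.01 ± 0.15, adjusted p = 0.00442). With the trend removed its difference was -0.20 and was not called (adjusted p = 0.483). In R6/2 mice on PLX3397 1 effector of 60 was called, or 1.67% beside 1.1% of all genes. It was Fes, a kinase downstream of class 3 semaphorins that is also abundant in myeloid cells, at 0.91, 0.44 and 0.27 on PLX3397 against 2.71, 1.90 and 2.34 on vehicle (-1.78 ± 0.27, adjusted p = 0.00502). Its difference was -2.04 (adjusted p = 0.0775) without R6/2 PLX3397 libraries 1 and 2. On vehicle 2 effectors were called, or 3.33% beside 2.11% of all genes. Chn2, a regulator of Rac, was lower in R6/2 (-0.82 ± 0.12, limma adjusted p = 0.0161), a call that held in 20 of 23 alternatives and ended when library 2 of R6/2 vehicle, or library 1 or 2 of wild-type vehicle, was dropped. Crmp1, a semaphorin signalling protein, was higher (0.63 ± 0.13, adjusted p = 0.0405), and its call held in 8 of 23 alternatives. The interaction was called positive for 1 of the 10 other ligands (10%). Of the 60 effectors it was called positive for 3 and negative for 5 (13.3%). Unlike the share of co-receptors, both lay below the 17% of all genes. Between genotypes on PLX3397, 29.4% of co-receptors, 20% of other ligands and 30% of effectors were called, beside 35% of all genes.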

How the data were processed

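Total RNA from microdissected, frozen striatum of 12 mice was sequenced with TruSeq libraries, per the labels. Per the submitters' processing notes, the authors used STAR, featureCounts, edgeR and limma with the mm10 build; versions are not given in the sources used here. The authors deposited log2 values in a table named for RPKM, but these log2 values are read counts scaled to library size (log2 CPM), not to gene length, with a prior of 2 reads on average: whole reads came back from 100% of values within 0.1 read. They were used as deposited, so the planned offset for RPKM was not needed. All columns mapped to a sample.

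Groups were compared with limma 3.58.1 (R 4.3.3), which estimated the 4 group means together with a trended prior variance. Its moderated tests were two-sided, adjusted by Benjamini-Hochberg over 15397 genes and called under 0.05. No filter was applied. GC content and transcript length came from GENCODE M21 (14305 genes, 92.9%), and positions and promoters from RefSeq on GRCm38. The test was tried on simulated data. Members, lists, alternatives and the shown promoters were chosen with earlier results of these data known. Every called member is named, or the 3 with the smallest p where fewer than 3 were called, with Sema6d, the 5 highest levels and up to 3 genes of each pathway list. Alternatives were each library left out, a replicate block, other scaling, offset and filter, limma-voom on recovered reads, fits of 2 groups, a GC and length trend removed (splines with 5 degrees of freedom each), a cortical marker covariate and libraries that stand apart left out. Where 1 library remained in a group, its spread was pooled from the other groups. Replicates correlated at r = 0.938 to 0.986. Figures were drawn with matplotlib 3.10.9, and tables were handled in Python 3.11.15 with pandas 2.3.3 and numpy 2.4.6, and rank correlations computed with scipy 1.17.1.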

Additional observations from a re-analysis of the deposited data

Results flagged for a closer look

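For 12 members the change on PLX3397 differed between R6/2 and wild-type mice by limma's interaction term. On the log2 scale, as the change in R6/2 minus the change in wild type, it was 1.35 for Sema6d, 4.17 for Sema3d, 1.23 for Sema6a, 1.57 for Robo1, 2.42 for Sema3c, 1.91 for Epha3, 1.60 for Unc5c, 2.66 for Unc5d and 1.44 for Slit2. It was -1.13 for Unc5a, -1.44 for Ephb6 and -0.51 for Sema6b. Without R6/2 PLX3397 libraries 1 and 2 the estimates ran, in the same order, at 1.20, 3.48, 1.25, 1.27, 2.00, 1.97, 1.58, 2.19, 1.49, -0.76, -0.87 and -0.35, and 0 were called. Groups of 3 libraries are too small to screen for a single outlying library.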

How the results depend on the processing

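The number of members called depended on the fit. Some counts, here and above, are given without the share over all genes. They are those with a replicate block, with only 2 groups fitted, with a library left out or without both libraries high in choroid plexus markers. Such counts may move only as the calls over all genes do. On vehicle, R6/2 against wild type gave 1 call, and 0 under limma-voom, a cortical covariate or without R6/2 PLX3397 libraries 1 and 2, 3 once a trend in GC content and length was taken out, 2 with only those groups fitted, and 0 to 3 with a library left out. PLX3397 against vehicle in wild type gave 11, and 3 with the trend removed (also with the block), 4 with those groups alone, 7 without R6/2 PLX3397 libraries 1 and 2, and 4 to 12 with a library left out. In R6/2 the count was 0, and 0 to 2 with a library left out. R6/2 against wild type on PLX3397 gave 32, and 17 with the trend removed (15 with the block), 18 with only those groups, 0 without R6/2 PLX3397 libraries 1 and 2, and 17 to 31 with a library left out. The interaction gave 12, and 3 without the trend (0 with the block), 0 with the cortical covariate or without R6/2 PLX3397 libraries 1 and 2, and 5 to 17 with a library left out. Only Sema6b reversed, when the trend was removed: 0.0206 with and without the block for R6/2 against wild type on PLX3397, and 0.0423 for the interaction; the cause was not tested.

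Samples share only a replicate number: of 18 correlations between same-numbered libraries, -0.32 to 0.40, 3 exceeded 0.1. A replicate block gave 0, 7, 0, 25 and 10 calls in the 5 comparisons, in the order above. Over all genes, calls on vehicle were 325, against 595 with the trend removed, 145 by limma-voom and 93 with the cortical covariate. In wild type they were 2191 against 621 with the trend removed, and for the interaction 2617 against 352 with the trend removed and 1 with the covariate. Of 1391 values of 61 named results under the alternatives, 1003 kept direction and side of the threshold, 374 lost the call, 10 gained one and 4 reversed. Depth bears most on Ntn5, which had 0 reads in R6/2 PLX3397 library 1. Among called members, Sema3d and Epha3 had few reads in wild-type PLX3397 libraries, 13 to 47 and 26 to 54.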

Other observations

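Several members varied widely between mice of a group. Robo3, a Robo receptor of commissural axons, stood at -0.09, 2.33 and 3.95 log2 CPM in R6/2 PLX3397, at 2.79, 4.30 and 3.79 in R6/2 vehicle, at 5.94, 3.66 and 5.41 in wild-type PLX3397 and at 4.69, 5.26 and 3.79 in wild-type vehicle libraries. Plxnd1, the receptor of Sema3e, stood at 3.94, 5.34 and 6.05 in R6/2 PLX3397, at 5.09, 6.04 and 6.05 in R6/2 vehicle, at 8.16, 6.30 and 6.20 in wild-type PLX3397 and at 6.52, 6.74 and 5.33 in wild-type vehicle libraries. In both genes R6/2 PLX3397 library 1 was the lowest of all 12 libraries and wild-type PLX3397 library 1 the highest. Ntng2, which encodes netrin-G2, a presynaptic adhesion protein, stood at 2.36, 2.16 and 3.45 in R6/2 PLX3397 and at 2.90, 2.83 and 5.19 in wild-type PLX3397 libraries, so that library 3 was highest in each of those groups. Library 3 also had the highest summed cortical markers of each group, at 1051 CPM in R6/2 PLX3397 and 1445 CPM in wild-type PLX3397; their part in these values was not tested.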
